A study of Mus musculus and Homo sapiens with 14 samples.

Results

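The genes of the collagen, laminin and integrin families were followed across 5 culture conditions of 2 mouse cell lines. Members were chosen by symbol alone: a Col symbol with a chain number, a Lama, Lamb or Lamc symbol with a chain number, or a symbol that begins with Itga or Itgb, with pseudogenes left out. This gave 86 of the 35288 gene identifiers in each table, 44 collagen genes, 11 laminin genes, 27 integrin subunit genes and 4 genes that are named for integrins but encode no subunit. Oli-neu, an oligodendrocyte precursor line of the mouse, was grown with D341 (a human Group 3 medulloblastoma line), with MB1 or alone. MB1, cells of a Sonic hedgehog medulloblastoma, was grown with Oli-neu or alone. MB1 came from tumours of Atoh1-cre:SmoM2 mice at postnatal day 12, in which Cre under control of Atoh1, a granule neuron precursor gene, switches on an active form of the hedgehog transducer Smoothened. Co-cultured lines were kept apart by a culture insert (30 mm, 0.4 µm pores), and all groups, the monocultures included, received EGF and bFGF at 20 ng/mL each. Each group had 2 biological replicates, so the 10 mouse libraries formed 5 pairs. Levels are in TPM, a share of each library's transcripts that is adjusted for transcript length and scaled to the same total of 1000000.

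Collagens are helical proteins of the extracellular matrix that form fibrils, sheets or beaded filaments according to type. Laminins are assembled from an alpha, a beta and a gamma chain and, together with the type IV collagen network, build basement membranes. Integrins are receptors made of an alpha and a beta subunit that bind these proteins and link them to the cytoskeleton. In the oligodendrocyte lineage, the pairing of Itga6 with Itgb1 is known as a laminin receptor with a role in survival and myelination.

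Between 11596 and 12338 genes reached 1 TPM in a library, and sequencing depth cannot be read from TPM. Pseudogenes held a larger part of the total in Oli-neu (36.0% to 38.2%) than in MB1 (25.2% to 26.8%). Sox10, a factor of the oligodendrocyte lineage, was at 171 to 235 TPM in Oli-neu and 0.466 to 0.882 TPM in MB1. Other genes of that lineage went the other way: Olig1 was at 126 to 187 TPM in Oli-neu and 455 to 833 TPM in MB1, Olig2 at 49.2 to 76 TPM and 151 to 246 TPM in the same order, and Nkx2-2 at 0 in all 6 Oli-neu libraries and 7.82 to 9.94 TPM in MB1. Of 8 markers of the lineage, 7 reached a mean of 1 TPM in Oli-neu and 6 in MB1, with summed levels of 539 to 698 TPM and 643 to 1108 TPM, ranges that overlapped. Zic1, a factor of granule neuron precursors, was at no more than 0.0322 TPM in Oli-neu, and at 63.7 to 125 TPM in MB1. Of 8 markers of granule precursors and hedgehog tumours, 4 had a mean of 1 TPM or more in MB1, Pax6, Ptch1, Zic1 and Zic2. Atoh1 and Barhl1 stayed under 0.1 TPM in all 4 MB1 libraries, which goes against a full granule precursor profile. Gli1 and Gli2, of the same list, were at 0.0822 to 0.178 TPM and 0.147 to 0.481 TPM in MB1, while Ptch1 was at 14.2 to 18.4 TPM. The list thus went in part with the name of the tumour and in part against it. Of 8 pericyte and smooth muscle markers, 0 reached a mean of 1 TPM in Oli-neu and 1 in MB1, Notch3, at 5.35 to 7.47 TPM (sums 0.551 to 1.2 TPM in Oli-neu and 6.55 to 8.34 TPM in MB1). Of 8 endothelial markers, Pecam1 and Vwf did so in Oli-neu, at 0.496 to 3.58 TPM and 0.553 to 2.22 TPM, and Pecam1 in MB1, at 0.946 to 3.94 TPM (sums 1.11 to 5.01 TPM in Oli-neu and 1.95 to 4.66 TPM in MB1), while Cdh5 and Cldn5 were under 0.1 TPM in all 10 libraries. Of 6 fibroblast markers that are not members, 2 reached a mean of 1 TPM in each line, Foxc1 and Twist1 in Oli-neu and Foxc1 and Fbln1 in MB1 (sums 13.3 to 19.8 TPM and 13.5 to 15.3 TPM), and Pdgfrb was under 0.1 TPM in all 10. Of 8 astrocyte markers, 5 reached a mean of 1 TPM in Oli-neu and 7 in MB1 (sums 927 to 1185 TPM and 650 to 804 TPM). Means were higher in MB1 for Slc1a3 (377 TPM, against 32.8 TPM in Oli-neu), Gja1 (12.1 and 0.152 TPM), Slc1a2, Aldh1l1, Gfap and Aqp4. They were higher in Oli-neu for Aldoc (826 TPM, against 275 TPM in MB1) and S100b (154 and 41.4 TPM). The part of such cells in the results was not tested. These are bulk libraries, in which fewer cells of a type and less RNA per cell cannot be told apart.

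A mean of at least 1 TPM over the libraries of a line was reached by 47 of the 86 members. In both lines 26 members did so, in Oli-neu without MB1 13, and in MB1 without Oli-neu 8. The collagens were the most divided between the lines: of 44 genes, 11 reached 1 TPM in both, 10 in Oli-neu without MB1, 6 in MB1 without Oli-neu and 17 in neither. Of 11 laminins, 5 reached it in both lines and 1, Lamb3, in Oli-neu without MB1. Of 27 integrin subunits, 8 reached it in both lines, 2 in each line without the other and 15 in neither.

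Oli-neu and MB1 stand in separate tables, so their levels were set side by side with no test. Among the 45 members of the 3 families with a mean of 1 TPM in a line, every Oli-neu library lay above every MB1 library for 20 and below for 9, together 64.4%. Over all 13235 genes with such a mean, these shares were 14.1% above and 39.1% below, together 53.2%. Collagens supplied most of the members above, 15 of 27 genes, with 5 below and 7 overlapping. Of 6 laminins, 2 lay above, 1 below and 3 overlapped. Of 12 integrin subunits, 3 lay above, 3 below and 6 overlapped.

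**Figure D1:**
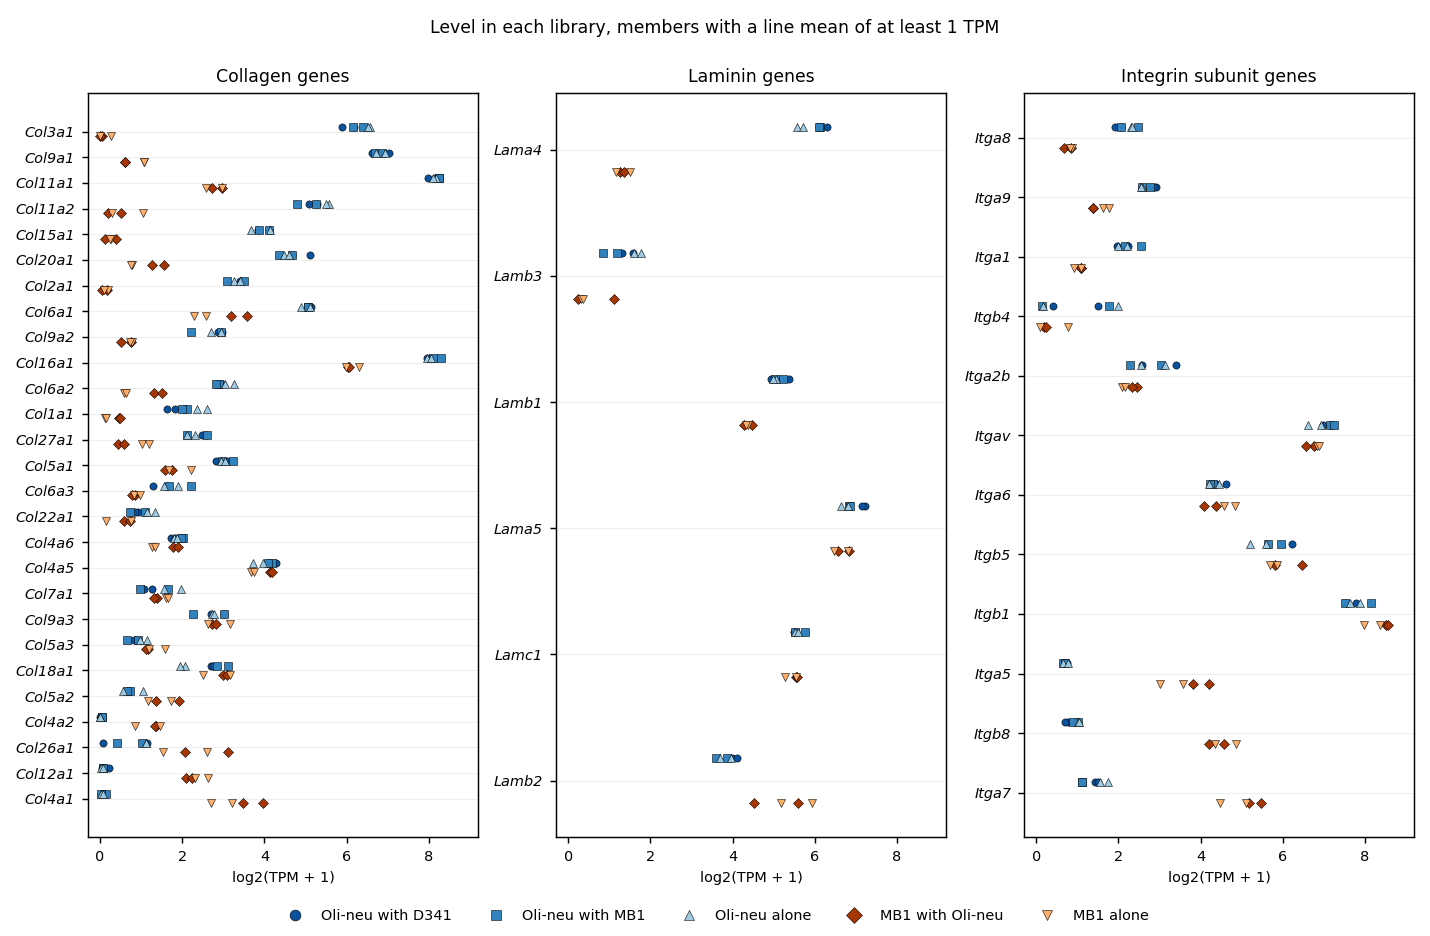
Level of each member with a mean of at least 1 TPM in a line, as log2(TPM + 1), with 1 symbol for each library and a panel for each family, ordered by the difference between Oli-neu (blue) and MB1 (brown and orange). Collagens at the top lie far to the right in Oli-neu, whereas Col4a1, Col12a1, Itga5, Itga7 and Itgb8 lie to the right in MB1. The lines overlap for 3 of 6 laminins and 6 of 12 integrin subunits.

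Summed collagen expression was 857 to 994 TPM in the 6 Oli-neu libraries and 121 to 159 TPM in the 4 MB1 libraries, which did not overlap. By culture the sums were 889 ± 45 TPM in Oli-neu with D341, 957 ± 52.8 TPM in Oli-neu with MB1 and 927 ± 23.3 TPM in Oli-neu alone, and 151 ± 11.6 TPM in MB1 with Oli-neu and 139.7 ± 25.9 TPM in MB1 alone (SD, n = 2 each). The lines differed in makeup as well as in total. Fibrillar collagens summed to 368 to 454 TPM in Oli-neu and 12.2 to 16.4 TPM in MB1, and fibril-associated collagens, which decorate or bridge fibrils, to 385 to 469 TPM and 74.5 to 94.4 TPM in the same order of lines. Type IV collagens of the basement membrane leaned the other way, at 14.7 to 21.1 TPM in Oli-neu and 19.7 to 35.9 TPM in MB1, with ranges that overlapped.

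**Figure D2:**
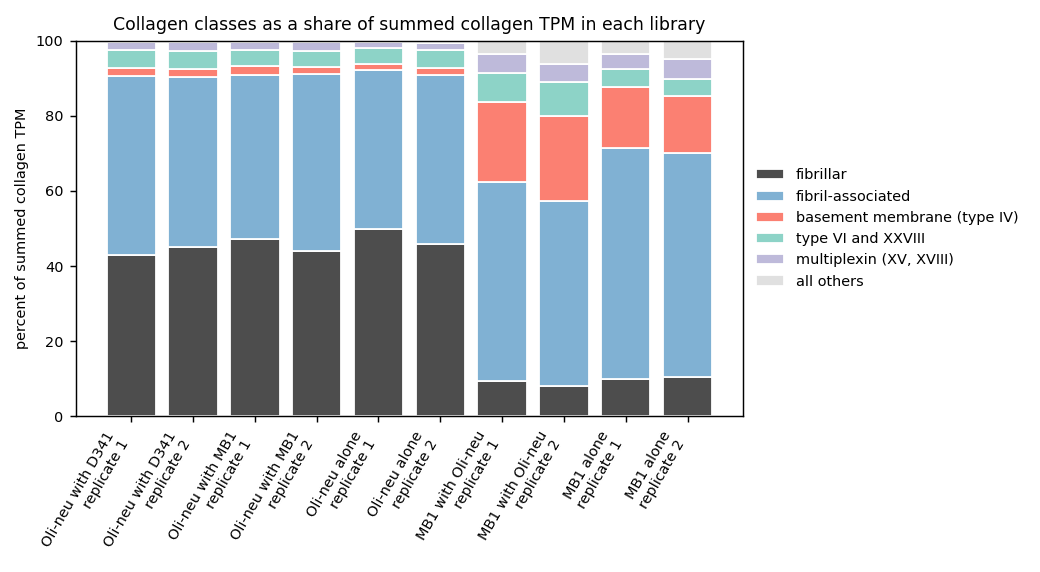
Share of summed collagen TPM held by each structural class in each of the 10 mouse libraries (stacked bars, percent). Fibrillar (dark) and fibril-associated (blue) collagens fill most of every Oli-neu bar, whereas type IV collagen (red) is a thin band in the Oli-neu bars and a wider block in the 4 MB1 bars.

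The Oli-neu profile held chains known from cartilage. Col11a1, a chain of the minor fibrillar type XI collagen that nucleates thin fibrils, was at 252 and 281 TPM in Oli-neu with D341, 301 and 302 TPM in Oli-neu with MB1 and 287 and 273 TPM in Oli-neu alone, against 6.84 and 5.57 TPM in MB1 with Oli-neu and 4.96 and 6.8 TPM in MB1 alone. Every Oli-neu library was far above every MB1 library, and the ratio of the line means was 46.8. Col11a1 alone held 28.9% to 32.7% of collagen TPM in Oli-neu, against 3.49% to 4.78% in MB1. Its partner Col11a2 had a lowest, median and highest value of 26.8, 37.4 and 46.4 TPM over the 6 Oli-neu libraries, and was at 0.435 and 0.152 TPM in MB1 with Oli-neu and 1.05 and 0.223 TPM in MB1 alone. Col2a1, the main fibrillar collagen of cartilage, was at 7.56, 9.57 and 10.4 TPM (lowest, median and highest) in Oli-neu and no higher than 0.139 TPM in MB1. These 3 genes separated the lines with no overlap.

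The type IX chains, which coat type II fibrils, did not follow a common pattern. Col9a1 was at 96.9 and 129 TPM in Oli-neu with D341, 103 and 115 TPM in Oli-neu with MB1 and 104 and 121 TPM in Oli-neu alone, against 0.522 and 0.515 TPM in MB1 with Oli-neu and 1.1 and 1.11 TPM in MB1 alone, a ratio of line means of 137. Col9a2 was at 3.6 to 6.84 TPM in Oli-neu and 0.425 to 0.705 TPM in MB1. Col9a3, by contrast, overlapped between the lines, at 3.79 to 7.12 TPM in Oli-neu and 5.18 to 8.0 TPM in MB1. The ratio of Col9a1 to Col9a3 was thus 16.3 to 27.1 over the Oli-neu libraries and 0.0845 to 0.212 over the MB1 libraries, with TPM comparable between genes because it is scaled by length. In MB1, Col9a3 was the type IX chain above 1 TPM in all 4 libraries.

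Col16a1, a fibril-associated collagen, had the highest collagen level in MB1 and a mean close to that of Col11a1 in Oli-neu. It was at 265 and 247 TPM in Oli-neu with D341, 272 and 315 TPM in Oli-neu with MB1 and 248 and 265 TPM in Oli-neu alone, against 64 and 65 TPM in MB1 with Oli-neu and 62.6 and 78 TPM in MB1 alone. It held 26.8% to 31.6% of collagen TPM in Oli-neu, against 40.8% to 51.6% in MB1, so that most fibril-associated collagen RNA in MB1 came from this gene (82.6% to 84.4%). Col20a1, another fibril-associated collagen, was at 19.4 to 33.7 TPM in Oli-neu and 0.679 to 1.93 TPM in MB1. Col12a1, a fibril-associated collagen of dense connective tissue, was the reverse, at 0.0184 to 0.165 TPM in Oli-neu, against 3.27 and 3.74 TPM in MB1 with Oli-neu and 3.95 and 5.21 TPM in MB1 alone.

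Col3a1, the fibrillar collagen of elastic tissues and vessel walls, was at 57.7 and 71.4 TPM in Oli-neu with D341, 82.6 and 70.6 TPM in Oli-neu with MB1 and 94.5 and 90.9 TPM in Oli-neu alone, against 0.0255 and 0.00396 TPM in MB1 with Oli-neu and 0.208 and 0.00519 TPM in MB1 alone. MB1 libraries thus held almost no Col3a1 RNA. Its neighbour Col5a2, a type V chain that runs toward it on the opposite strand of chromosome 1 with 24614 bp between them, was at 0.48 to 1.06 TPM in Oli-neu, against 1.58 and 2.77 TPM in MB1 with Oli-neu and 1.23 and 2.32 TPM in MB1 alone, with every Oli-neu library below every MB1 library. Over protein-coding genes alone, Col5a2 overlapped between the lines. Col1a1, a chain of type I collagen, was at 2.52 and 2.08 TPM in Oli-neu with D341, 3.36 and 3.01 TPM in Oli-neu with MB1 and 5.12 and 4.09 TPM in Oli-neu alone, against 0.367 and 0.407 TPM in MB1 with Oli-neu and 0.0806 and 0.0971 TPM in MB1 alone. Col1a2, the other chain of type I collagen, stayed at or under 0.0218 TPM in Oli-neu and 0.0116 TPM in MB1, so Col1a1 RNA was measured in Oli-neu without that of its usual partner. Of the other fibrillar members, Col5a1 was at 6.02 to 8.36 TPM in Oli-neu and 1.98 to 3.64 TPM in MB1, and Col27a1 at 3.32 to 5.09 TPM and 0.345 to 1.28 TPM in the same order.

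Type IV collagen, the network of basement membranes, is encoded by genes that lie head to head in pairs, and the pairs differed between the lines. Col4a5 (chrX:141475385-141689234, plus strand, GRCm38) and Col4a6 (chrX:141165403-141474076, minus strand) start 1309 bp apart on the X chromosome. Their promoter windows, from RefSeq on GRCm38.p6, reach from 250 bases before to 50 bases after each start and are shown because this was the type IV pair present in both lines. The Col4a5 window is chrX:141475169-141475468 on the plus strand and the Col4a6 window is chrX:141474027-141474326 on the minus strand. Capitals mark matches to CCAAT or GGGCGG on either strand.
Col4a5: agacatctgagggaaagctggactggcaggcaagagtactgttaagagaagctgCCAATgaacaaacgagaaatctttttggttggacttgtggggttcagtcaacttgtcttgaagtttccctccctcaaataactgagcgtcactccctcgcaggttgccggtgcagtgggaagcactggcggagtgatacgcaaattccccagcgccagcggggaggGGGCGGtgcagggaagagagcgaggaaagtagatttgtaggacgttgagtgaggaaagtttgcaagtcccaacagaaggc
Col4a6: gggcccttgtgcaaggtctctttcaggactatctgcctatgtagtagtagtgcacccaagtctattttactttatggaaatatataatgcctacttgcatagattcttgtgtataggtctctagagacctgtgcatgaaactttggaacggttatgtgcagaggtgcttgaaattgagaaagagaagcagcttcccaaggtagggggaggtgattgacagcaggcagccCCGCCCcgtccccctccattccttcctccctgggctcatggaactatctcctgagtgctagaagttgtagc
The windows do not overlap. The Col4a5 window held 1 match to CCAAT and 1 to GGGCGG, and the Col4a6 window held 1 match to GGGCGG and none to CCAAT or TATAAA.

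Col4a5 was at 15.8 and 18.4 TPM in Oli-neu with D341, 17.3 and 16 TPM in Oli-neu with MB1 and 12.1 and 14.6 TPM in Oli-neu alone, against 16.5 and 17 TPM in MB1 with Oli-neu and 11.8 and 12.4 TPM in MB1 alone. Col4a6 was at 2.29 and 2.53 TPM in Oli-neu with D341, 3.07 and 2.9 TPM in Oli-neu with MB1 and 2.51 and 2.67 TPM in Oli-neu alone, against 2.43 and 2.73 TPM in MB1 with Oli-neu and 1.39 and 1.51 TPM in MB1 alone. Both chains overlapped between the lines, and Col4a5 exceeded Col4a6 by a ratio of 4.83 to 7.28 in Oli-neu, against 6.24 to 8.48 in MB1. Col4a5 made up 82.6% to 87.4% of type IV RNA in Oli-neu, against 47.5% to 59.9% in MB1.

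Col4a1 (chr8:11198423-11312826, minus strand; ENSMUSG00000031502) and Col4a2 (chr8:11312805-11449287, plus strand) lie closer together, with annotated starts 21 bp apart, and their windows of 300 bases share 78 bases. Col4a1 stayed between 0.00963 and 0.111 TPM in Oli-neu, against 10.1 and 14.6 TPM in MB1 with Oli-neu and 5.55 and 8.26 TPM in MB1 alone. Col4a2 was at no more than 0.040 TPM in Oli-neu, against 1.57 and 1.52 TPM in MB1 with Oli-neu and 0.80 and 1.74 TPM in MB1 alone. This pair was therefore close to 0 in every Oli-neu library and present in every MB1 library, where Col4a1 exceeded Col4a2 by a ratio of 4.76 to 9.64. The remaining pair, Col4a3 and Col4a4, did not exceed 0.131 TPM in any library.

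Over the 62 members with a RefSeq window, 68 windows of 300 bases in all, GGGCGG was found on either strand in 52.9% of windows, against 35.7% of all 32851 windows. CCAAT was found in 26.5% of member windows, against 37.4% of all. TATAAA was found in 7.35% of member windows, against 13.6% of all. A match describes letters in a window and not a bound site.

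Type VI collagen forms beaded filaments from Col6a1, Col6a2 and a longer chain such as Col6a3. Col6a1 (chr10:76708792-76726168, minus strand) was at 33.3 and 34.3 TPM in Oli-neu with D341, 32.6 and 32.6 TPM in Oli-neu with MB1 and 28.7 and 33.3 TPM in Oli-neu alone, against 8.06 and 10.8 TPM in MB1 with Oli-neu and 3.85 and 5.02 TPM in MB1 alone. Col6a2 (chr10:76595762-76623630, minus strand), its neighbour on the same strand, was at 6.7 and 6.85 TPM in Oli-neu with D341, 6.39 and 6.04 TPM in Oli-neu with MB1 and 7.22 and 8.51 TPM in Oli-neu alone, against 1.5 and 1.86 TPM in MB1 with Oli-neu and 0.493 and 0.562 TPM in MB1 alone. All Oli-neu libraries lay above all MB1 libraries for both genes. Col6a1 exceeded Col6a2 in every library, by 3.91 to 5.39 in Oli-neu, against 5.38 to 8.94 in MB1. Col6a3 was at 1.43 to 3.66 TPM in Oli-neu and 0.72 to 0.949 TPM in MB1. Col6a4, whose chain can stand in for that of Col6a3, was at 0 in all 6 Oli-neu libraries and at 0.263 to 0.373 TPM in MB1.

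The multiplexins, which lie at basement membranes, differed from each other, with Col15a1 far apart between the lines and Col18a1 overlapping. Col15a1 was at 13.5 and 16.3 TPM in Oli-neu with D341, 13.6 and 16.2 TPM in Oli-neu with MB1 and 11.7 and 16.7 TPM in Oli-neu alone, against 0.0934 and 0.313 TPM in MB1 with Oli-neu and 0.21 and 0.176 TPM in MB1 alone. Col18a1 (chr10:77052178-77166548, minus strand), whose protein carries the endostatin domain at its end, was at 5.46 and 5.72 TPM in Oli-neu with D341, 6.13 and 7.72 TPM in Oli-neu with MB1 and 3.16 and 2.88 TPM in Oli-neu alone, against 7.0 and 7.49 TPM in MB1 with Oli-neu and 4.68 and 7.98 TPM in MB1 alone. It made up 14.7% to 32.3% of multiplexin RNA in Oli-neu, against 95.7% to 98.7% in MB1. RefSeq places Col18a1 starts in the table used here at 2 positions, and gene-level TPM does not separate them. Their windows, chr10:77166481-77166780 on the minus strand and chr10:77113656-77113955 on the minus strand, are shown because Col18a1 had the smallest p of all members in both Oli-neu co-cultures. Capitals mark matches to CCAAT or GGGCGG on either strand.
Col18a1, upstream start: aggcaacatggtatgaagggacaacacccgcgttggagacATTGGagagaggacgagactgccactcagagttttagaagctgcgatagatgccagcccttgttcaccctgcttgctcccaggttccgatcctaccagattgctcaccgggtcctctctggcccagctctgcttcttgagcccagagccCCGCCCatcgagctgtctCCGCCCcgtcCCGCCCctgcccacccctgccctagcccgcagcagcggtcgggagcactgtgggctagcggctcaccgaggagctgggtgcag
Col18a1, downstream start: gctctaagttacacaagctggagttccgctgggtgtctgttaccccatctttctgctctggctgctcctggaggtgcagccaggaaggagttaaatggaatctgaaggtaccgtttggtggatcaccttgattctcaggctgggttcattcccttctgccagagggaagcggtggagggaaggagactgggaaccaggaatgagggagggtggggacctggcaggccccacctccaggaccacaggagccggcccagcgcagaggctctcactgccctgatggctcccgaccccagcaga
The upstream window held 3 matches to GGGCGG and 1 to CCAAT, and the downstream window held none of the 3 motifs.

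Among the other collagens above 1 TPM in a line, Col26a1 was at 0.0594 to 1.2 TPM in Oli-neu, against 3.2 and 7.69 TPM in MB1 with Oli-neu and 1.87 and 5.11 TPM in MB1 alone. Col7a1, the collagen of anchoring fibrils, overlapped between the lines at 0.978 to 2.92 TPM in Oli-neu and 1.49 to 2.13 TPM in MB1. Col22a1, a collagen of tissue junctions, and Col5a3, a type V chain, also overlapped. The 17 collagens under a mean of 1 TPM in both lines included 10 that were under 0.1 TPM in all 10 libraries. Col10a1, the collagen of hypertrophic cartilage, was at 0.101 to 0.356 TPM in Oli-neu and at 0, 0, 0 and 0.00945 TPM in MB1.

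Summed laminin RNA was 316 ± 3.82 TPM in Oli-neu with D341, 279.9 ± 7.16 TPM in Oli-neu with MB1 and 248 ± 14.7 TPM in Oli-neu alone, and 207 ± 1.43 TPM in MB1 with Oli-neu and 211 ± 27.3 TPM in MB1 alone (SD, n = 2 each), most of it from 5 chains. Lama5, an alpha chain common in mature basement membranes, was the highest in both lines, at 149 and 142 TPM in Oli-neu with D341, 113 and 115 TPM in Oli-neu with MB1 and 99.4 and 111 TPM in Oli-neu alone, against 114 and 93.4 TPM in MB1 with Oli-neu and 87.5 and 111 TPM in MB1 alone. Lama4, an alpha chain known from vessel walls and nerves (chr10:38965515-39110188, plus strand), was at 77.9 and 68 TPM in Oli-neu with D341, 68.8 and 67.8 TPM in Oli-neu with MB1 and 46.4 and 51.1 TPM in Oli-neu alone, against 1.39 and 1.56 TPM in MB1 with Oli-neu and 1.82 and 1.25 TPM in MB1 alone. The lines overlapped for Lama5 and were far apart for Lama4, with a ratio of line means of 42. Lama4 thus held 31.3% to 37.7% of alpha chain RNA in Oli-neu, against 1.11% to 2.03% in MB1. The other alpha chains, Lama1, Lama2 and Lama3, stayed under 1 TPM in every library.

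Lamc1, the gamma chain shared by most laminins, was nearly level over all libraries, at 45.7 and 43.8 TPM in Oli-neu with D341, 53.7 and 44.8 TPM in Oli-neu with MB1 and 44.9 and 47 TPM in Oli-neu alone, against 45.6 and 46.5 TPM in MB1 with Oli-neu and 45.6 and 37.5 TPM in MB1 alone. This depends on the scaling: over protein-coding genes alone, every Oli-neu library lay above every MB1 library for Lamc1. The beta chains differed in order between the lines. Lamb1, the widespread beta chain, was at 29.6 and 40.7 TPM in Oli-neu with D341, 36.4 and 31.5 TPM in Oli-neu with MB1 and 32.2 and 30.6 TPM in Oli-neu alone, against 21.4 and 18.3 TPM in MB1 with Oli-neu and 19.7 and 18.9 TPM in MB1 alone. Lamb2, the beta chain of synapses and kidney filters, was at 14.9 and 16.3 TPM in Oli-neu with D341, 11 and 13.5 TPM in Oli-neu with MB1 and 12 and 14.5 TPM in Oli-neu alone, against 22.1 and 47.5 TPM in MB1 with Oli-neu and 35.4 and 59.8 TPM in MB1 alone. The ratio of Lamb1 to Lamb2 was 1.99 to 3.31 in Oli-neu, against 0.317 to 0.97 in MB1, with no overlap. Lamb3, an epithelial beta chain, was at 1.48 and 2.01 TPM in Oli-neu with D341, 1.28 and 0.787 TPM in Oli-neu with MB1 and 2.02 and 2.41 TPM in Oli-neu alone, against 1.17 and 0.187 TPM in MB1 with Oli-neu and 0.25 and 0.295 TPM in MB1 alone. Lamc3, another gamma chain, did not exceed 0.574 TPM.

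Integrin subunit RNA summed to 445 ± 50.5 TPM in Oli-neu with D341, 476 ± 69.7 TPM in Oli-neu with MB1 and 411 ± 11.6 TPM in Oli-neu alone, and to 645 ± 34.7 TPM in MB1 with Oli-neu and 553 ± 45.4 TPM in MB1 alone (SD, n = 2 each). Among the beta subunits, Itgb1, the partner of most alpha subunits, led in both lines, at 219 and 186 TPM in Oli-neu with D341, 280.2 and 181 TPM in Oli-neu with MB1 and 235 and 196 TPM in Oli-neu alone, against 366 and 375 TPM in MB1 with Oli-neu and 327 and 249.9 TPM in MB1 alone. It held 74.2% to 82.6% of beta subunit RNA in Oli-neu, against 76.2% to 83.6% in MB1. Itgb5, which pairs with Itgav, was at 74.1 and 48.4 TPM in Oli-neu with D341, 61.4 and 48.9 TPM in Oli-neu with MB1 and 47.5 and 35.6 TPM in Oli-neu alone, against 87.4 and 55.3 TPM in MB1 with Oli-neu and 50.1 and 56.8 TPM in MB1 alone. Both genes overlapped between the lines. Itgb8, which also pairs with Itgav and is known for release of latent TGF-beta, did not: it was at 0.701 and 0.61 TPM in Oli-neu with D341, 1.02 and 0.873 TPM in Oli-neu with MB1 and 1.01 and 1.04 TPM in Oli-neu alone, against 22.6 and 17.4 TPM in MB1 with Oli-neu and 27.9 and 19.5 TPM in MB1 alone.

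Itgav, the alpha subunit of the vitronectin receptors, was the highest alpha subunit in both lines, at 139.9 and 126 TPM in Oli-neu with D341, 141 and 152 TPM in Oli-neu with MB1 and 96.5 and 121 TPM in Oli-neu alone, against 108 and 94.2 TPM in MB1 with Oli-neu and 114 and 116 TPM in MB1 alone. The laminin-binding alpha subunits differed from each other. Itga6 overlapped between the lines, at 23.6 and 19.6 TPM in Oli-neu with D341, 18.8 and 17.7 TPM in Oli-neu with MB1 and 17.6 and 20.9 TPM in Oli-neu alone, against 19.7 and 15.9 TPM in MB1 with Oli-neu and 27.7 and 22.8 TPM in MB1 alone. Itga7 (chr10:128933818-128958282, plus strand) was at 1.67 and 1.81 TPM in Oli-neu with D341, 1.16 and 1.16 TPM in Oli-neu with MB1 and 1.92 and 2.35 TPM in Oli-neu alone, against 43.2 and 35.1 TPM in MB1 with Oli-neu and 21.1 and 33.3 TPM in MB1 alone, and Itga3 was at 0.0727 to 0.191 TPM in Oli-neu and 0.282 to 0.586 TPM in MB1. Itga7 thus held 0.611% to 1.42% of alpha subunit RNA in Oli-neu, against 11.8% to 22.4% in MB1. Of the collagen-binding alpha subunits, Itga1 was at 2.91 to 4.9 TPM in Oli-neu and 0.897 to 1.12 TPM in MB1, while Itga2, Itga10 and Itga11 stayed under 1 TPM in all 10 libraries.

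Itga5, the fibronectin receptor subunit, was at 0.67 and 0.603 TPM in Oli-neu with D341, 0.577 and 0.63 TPM in Oli-neu with MB1 and 0.58 and 0.694 TPM in Oli-neu alone, against 13 and 17.3 TPM in MB1 with Oli-neu and 7.03 and 11 TPM in MB1 alone. Itga9, a receptor subunit for tenascins, was at 6.58 and 6.25 TPM in Oli-neu with D341, 5.8 and 4.9 TPM in Oli-neu with MB1 and 4.99 and 4.85 TPM in Oli-neu alone, against 1.6 and 1.6 TPM in MB1 with Oli-neu and 2.09 and 2.4 TPM in MB1 alone. Itga8, whose ligand is nephronectin, was at 2.8 to 4.59 TPM in Oli-neu and 0.59 to 0.823 TPM in MB1. All Oli-neu libraries were below all MB1 libraries for Itga5 and above them for Itga8 and Itga9. Itga2b, the platelet fibrinogen receptor subunit, was at 5.0 and 9.51 TPM in Oli-neu with D341, 3.88 and 7.13 TPM in Oli-neu with MB1 and 4.81 and 7.75 TPM in Oli-neu alone, against 4.43 and 3.98 TPM in MB1 with Oli-neu and 3.23 and 3.44 TPM in MB1 alone, whereas its partner Itgb3 did not exceed 1.05 TPM in Oli-neu or 0.269 TPM in MB1. The leukocyte subunits Itgal, Itgam, Itgax, Itgad and Itgb2 did not exceed 0.391 TPM in any library, and Itgb2l was at 0 in all 10. Of the 4 genes that encode no subunit, Itgb1bp1, which binds the tail of Itgb1, was at 33.1 to 42.9 TPM in Oli-neu and 42.3 to 52.4 TPM in MB1, and Itgb3bp, a centromere protein, at 15.1 to 29.7 TPM and 15.3 to 20.7 TPM in the same order, while Itgb1bp2 and Itgbl1 stayed under 1 TPM.

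The 39 members under a mean of 1 TPM in both lines were spread over all 3 families. Besides the collagens described above, they include Col8a1 and Col8a2 of the cornea and vessels, Col13a1, Col17a1, Col23a1 and Col25a1, which span the cell membrane, the type VI chains Col6a5 and Col6a6, Col14a1, Col19a1, Col24a1 and Col28a1. None of these 12 exceeded 0.666 TPM, the highest value of Col28a1. Among integrins, Itga4, a receptor subunit for fibronectin and a vascular adhesion molecule, reached 1.48 TPM in its highest library, Itgb7 0.883 TPM and Itgae, its partner in lymphocytes, 0.104 TPM. Of the 86 members, 17 stayed under 0.1 TPM in all 10 libraries, 10 of them collagens, 1 a laminin and 6 integrin subunits.

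The effect of a partner line on these genes was tested with limma on log2(TPM + 1), two-sided, over all genes that reached 1 TPM in 2 or more libraries of a table, with Benjamini-Hochberg adjustment over all genes tested and a threshold of 0.05. Fold changes are on that log2(TPM + 1) scale, which understates changes of low genes. With 2 libraries in a group, p-values rest on few libraries. The spread behind them is pooled over the groups of a table and drawn toward that of genes of similar level. In MB1, a member that passed through 1 of the 2 groups had to differ. In Oli-neu, libraries of the group left out of a comparison can also carry a gene past the filter. Such a member need not differ there, and Col22a1 overlapped between the co-cultures. Counts are also given without members that had no library of 1 TPM in 1 group of a comparison. This filter was passed by 41 members in Oli-neu (22 collagens, 6 laminins, 11 integrin subunits and 2 others) and by 36 in MB1 (19, 5, 10 and 2). No member passed the threshold in any of the 4 comparisons, so the values below describe differences that did not pass. Oli-neu alone served as the control of both Oli-neu co-cultures, whose results therefore share these 2 libraries.

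Beside MB1, the largest difference among the Oli-neu members was in Col18a1, which was higher than in Oli-neu alone. Of 12280 genes tested, 0 passed the threshold (0%), and so did 0 of 41 members. At an unadjusted p under 0.05 there were 3 members higher and 5 lower in Oli-neu with MB1, against 6.08% of all genes in either direction, 1.43% higher and 4.65% lower. Col18a1 was at 6.13 and 7.72 TPM in Oli-neu with MB1, against 3.16 and 2.88 TPM in Oli-neu alone (log2 fold change 0.97, SE 0.13, limma adjusted p = 0.532). Both co-culture libraries were above the monoculture pair, by 0.78 for replicate 1 and 1.17 for replicate 2 on the log2 scale.

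Among the laminins, Lama4 was at 68.8 and 67.8 TPM in Oli-neu with MB1, against 46.4 and 51.1 TPM alone (log2 fold change 0.48, SE 0.13, limma adjusted p = 0.715). Lamb3 was at 1.28 and 0.787 TPM, against 2.02 and 2.41 TPM alone, a log2 fold change of -0.67, and Lama5 at 113 and 115 TPM, against 99.4 and 111 TPM alone, a log2 fold change of 0.12. None of the 3 overlapped between the groups. Itga7 was at 1.16 and 1.16 TPM in Oli-neu with MB1, against 1.92 and 2.35 TPM alone (log2 fold change -0.53, SE 0.14). Itgav, the most abundant alpha subunit, was at 141 and 152 TPM with MB1, against 96.5 and 121 TPM alone (0.43, SE 0.16, log2), and its partner Itgb5 at 61.4 and 48.9 TPM, against 47.5 and 35.6 TPM alone (0.41, SE 0.27, log2). Among the fibrillar collagens, Col1a1 was at 3.36 and 3.01 TPM with MB1, against 5.12 and 4.09 TPM alone (log2 fold change -0.42), and Col11a2 at 26.8 and 36.9 TPM, against 46.4 and 43.8 TPM alone (-0.51, log2). Both libraries of Oli-neu with MB1 lay above both of Oli-neu alone for 9 of 41 members and below for 8, against 10.1% and 24.0% of all genes tested.

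The median log2 fold change was -0.029 over the 22 tested collagens, 0.099 over 6 laminins and -0.04 over 11 integrin subunits, beside -0.061 over all genes tested. With median-ratio scaling of the columns, which centres the bulk of genes, these were 0.031, 0.16 and 0.01, beside -0.0057, so the collagen and integrin medians changed sign. Of all genes at an unadjusted p under 0.05, 48% of 711 were higher with that scaling, against 23.6% of 747 as deposited.

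Beside D341, Col18a1 again had the smallest p of the members, ahead of Col1a1, which lay on the lower side. Of 12280 genes tested, 0 passed the threshold (0%), and so did 0 of 41 members. At an unadjusted p under 0.05 there were 4 members higher and 2 lower in Oli-neu with D341, against 13.7% of all genes in either direction, 1.61% higher and 12.1% lower. Col18a1 was at 5.46 and 5.72 TPM in Oli-neu with D341, against 3.16 and 2.88 TPM in Oli-neu alone (log2 fold change 0.71, SE 0.13, limma adjusted p = 0.32). Lama4 was at 77.9 and 68 TPM with D341, against 46.4 and 51.1 TPM alone (log2 fold change 0.57, SE 0.13, limma adjusted p = 0.32). Lama5, the most abundant laminin, was at 149 and 142 TPM with D341, against 99.4 and 111 TPM alone (log2 fold change 0.46, SE 0.12, limma adjusted p = 0.32). The pairs did not overlap for any of these 3 genes. Lamb2 was at 14.9 and 16.3 TPM, against 12 and 14.5 TPM alone (0.22, log2).

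The fibrillar collagens Col1a1 and Col3a1 lay on the lower side. Col1a1 was at 2.52 and 2.08 TPM in Oli-neu with D341, against 5.12 and 4.09 TPM alone (log2 fold change -0.76, SE 0.15, limma adjusted p = 0.32), and Col3a1 at 57.7 and 71.4 TPM, against 94.5 and 90.9 TPM alone (-0.52, SE 0.16, log2). By replicate number, the Col3a1 difference was -0.70 for replicate 1 and -0.34 for replicate 2. Of the integrins, Itga9 was at 6.58 and 6.25 TPM with D341, against 4.99 and 4.85 TPM alone (0.32, SE 0.11, log2). Itgb5 was at 74.1 and 48.4 TPM, against 47.5 and 35.6 TPM alone (0.53, SE 0.27, log2). Itgb8 was at 0.701 and 0.61 TPM, against 1.01 and 1.04 TPM alone (-0.29, log2), and passed the filter through Oli-neu libraries other than those with D341. Both libraries of Oli-neu with D341 lay above both of Oli-neu alone for 11 of 41 members and below for 10, against 7.12% and 44.0% of all genes tested, and for 11 and 8 of 39 without Col22a1 and Itgb8, which had no library of 1 TPM with D341.

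The median log2 fold change with D341 was -0.023 over collagens, 0.18 over laminins and 0.0026 over integrin subunits, beside -0.16 over all genes. After median-ratio scaling, which moved the median of all genes to 0.00028, the family medians were 0.15, 0.36 and 0.15. The collagen median thus changed sign. On that scale 10 of 41 members were higher and 1 lower at an unadjusted p under 0.05. Of the 12280 genes tested, 1064 were at that level in either direction. Of these, 56.9% were higher, against 11.8% of 1684 as deposited. The members with the smallest p kept their direction: the scaled log2 fold change was 0.86 for Col18a1, 0.75 for Lama4, 0.65 for Lama5, -0.62 for Col1a1 and -0.34 for Col3a1.

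Set directly against each other, Oli-neu with D341 and Oli-neu with MB1 had the smallest p among members at Lama5, which was higher with D341. Of 12280 genes tested, 0 passed (0%), and so did 0 of 41 members. At an unadjusted p under 0.05, 1 member was higher and 0 lower with D341, against 5.13% of all genes in either direction, 0.790% higher and 4.34% lower. Lama5 was at 149 and 142 TPM with D341, against 113 and 115 TPM with MB1 (log2 fold change 0.35, SE 0.12, limma adjusted p = 0.839). Lamb2 and Lamb3 were also higher in both libraries with D341, at 14.9 and 16.3 TPM for Lamb2, against 11 and 13.5 TPM with MB1, and 1.48 and 2.01 TPM for Lamb3, against 1.28 and 0.787 TPM with MB1. Among integrins, Itga7 (0.34) and Itga9 (0.23) were higher with D341 on the log2 scale. Itga8 was at 3.2 and 2.8 TPM with D341, against 4.59 and 3.18 TPM with MB1 (-0.27, log2), which overlapped, although it was lower with D341 by replicate number (-0.41 for replicate 1 and -0.14 for replicate 2). Col6a3 was at 1.43 and 2.09 TPM with D341, against 2.2 and 3.66 TPM with MB1 (-0.49, log2), and Col1a1 (-0.34) and Col4a6 (-0.23) were lower as well. Both D341 libraries lay above both MB1 co-culture libraries for 9 of 41 members and below for 8, against 6.60% and 28.8% of all genes, and for 9 and 7 of 39 without Col22a1 and Itgb8. Medians were -0.0097 over collagens, 0.21 over laminins and -0.0084 over integrin subunits, beside -0.092 over all genes, and with median-ratio scaling 0.074, 0.33 and 0.034, beside 0.014. The collagen and integrin medians changed sign with that scaling, and 52.2% of 481 genes at an unadjusted p under 0.05 were then higher, against 15.4% of 630 as deposited.

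**Figure D3:**
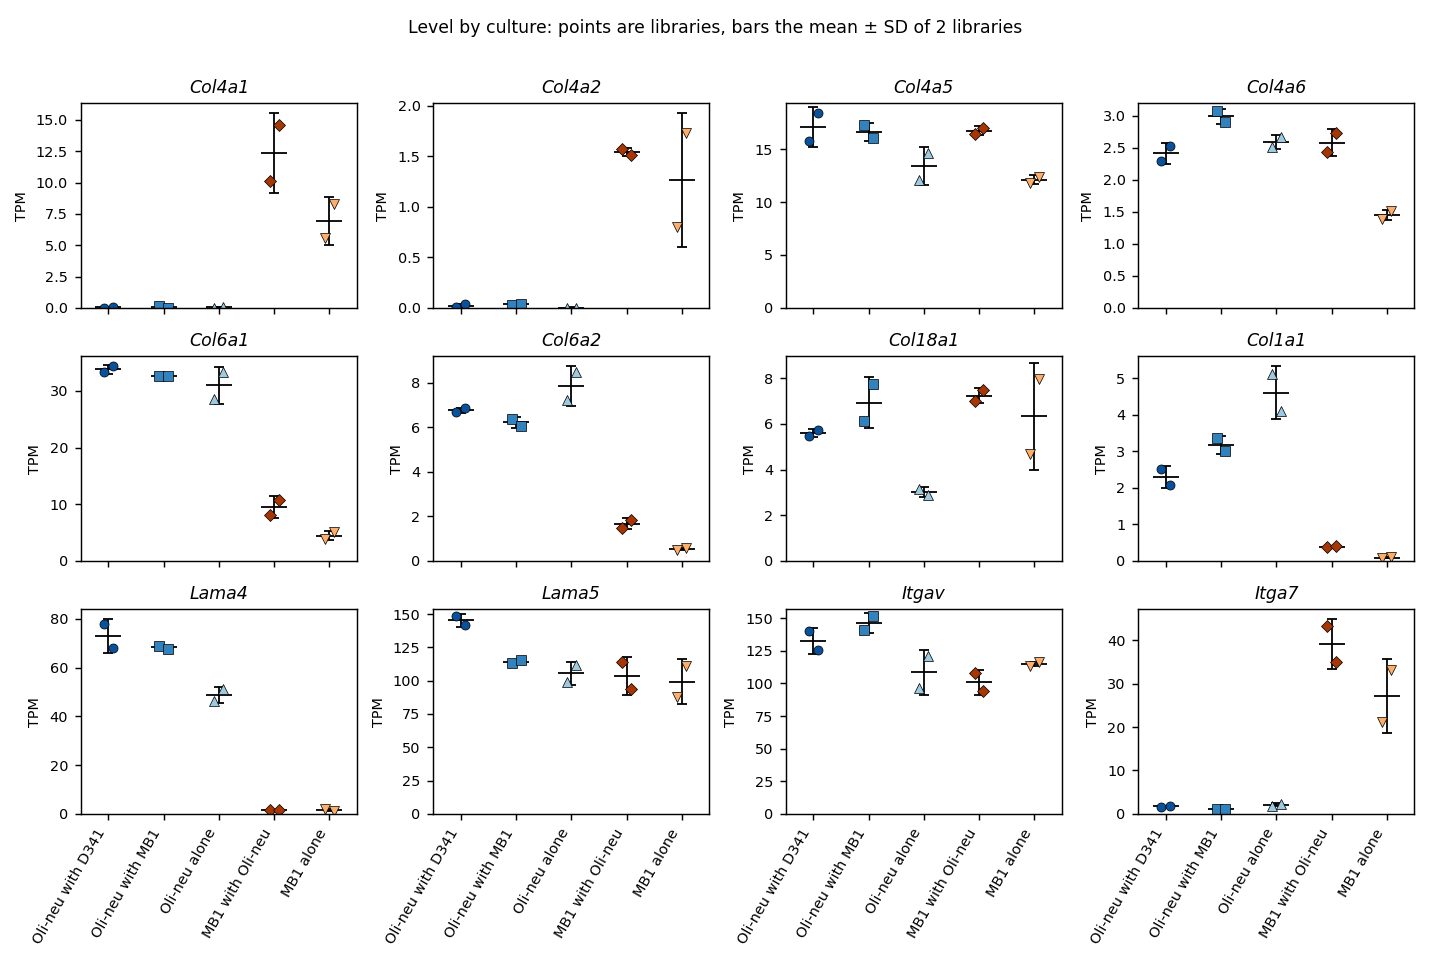
TPM of 12 members in each library by culture (points), with the mean and SD of the 2 libraries (bars), Oli-neu cultures in blue and MB1 cultures in brown and orange. Col18a1 and Lama4 are higher in both Oli-neu co-cultures than in Oli-neu alone, Col1a1 is lower, and the type IV and type VI chains other than Col4a2 are higher in MB1 with Oli-neu than in MB1 alone.

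In MB1, type VI and type IV collagen chains were among the members of smallest p, and were higher beside Oli-neu. Of 12407 genes tested, 0 passed the threshold (0%), and so did 0 of 36 members. At an unadjusted p under 0.05 there were 7 members higher and 2 lower in MB1 with Oli-neu, against 15.7% of all genes in either direction, 3.02% higher and 12.6% lower. Of these 9, Col6a2 and Col20a1 passed the filter through the co-culture libraries alone and both lower members, Col27a1 and Col9a1, through the monoculture libraries alone, and among the 32 members without these 4 there were 5 higher and 0 lower. Col6a1 was at 8.06 and 10.8 TPM in MB1 with Oli-neu, against 3.85 and 5.02 TPM in MB1 alone (log2 fold change 0.94, SE 0.22, limma adjusted p = 0.282). Its neighbour Col6a2 was at 1.5 and 1.86 TPM, against 0.493 and 0.562 TPM alone (log2 fold change 0.81, SE 0.18, limma adjusted p = 0.282). Both chains separated the groups. Col20a1 was at 1.4 and 1.93 TPM with Oli-neu, against 0.721 and 0.679 TPM alone (0.64, log2). Col6a3 did not follow, at 0.793 and 0.72 TPM with Oli-neu, against 0.769 and 0.949 TPM alone.

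Type IV chains of both pairs were higher in MB1 with Oli-neu. Col4a1 was at 10.1 and 14.6 TPM, against 5.55 and 8.26 TPM in MB1 alone (log2 fold change 0.76, SE 0.27). Col4a5 was at 16.5 and 17 TPM, against 11.8 and 12.4 TPM alone (0.44, SE 0.14, log2). Col4a6 was at 2.43 and 2.73 TPM, against 1.39 and 1.51 TPM alone (0.55, SE 0.17, log2). These 3 chains did not overlap between the groups, and summed type IV RNA was 33.2 ± 3.77 TPM with Oli-neu and 21.8 ± 3.02 TPM alone (SD, n = 2 each). Col4a2, which shares its start region with Col4a1, overlapped, at 1.57 and 1.52 TPM with Oli-neu and 0.80 and 1.74 TPM alone. In Oli-neu, Col4a5 was also higher in each co-culture than alone, by 0.33 with D341 and 0.30 with MB1 on the log2 scale, comparisons that share their controls and in which it did not pass.

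Collagens that were lower in MB1 with Oli-neu included Col27a1, at 0.345 and 0.492 TPM, against 1.02 and 1.28 TPM alone (-0.60, log2), and Col9a1, at 0.522 and 0.515 TPM, against 1.1 and 1.11 TPM alone (-0.47, log2). Both passed the filter through the monoculture libraries alone, so they had to be lower and nothing is read from their direction. Of the members abundant in Oli-neu and scarce in MB1, Col3a1 and Col2a1 were not higher in MB1 beside Oli-neu: Col3a1 was at 0.0255 and 0.00396 TPM, against 0.208 and 0.00519 TPM alone, and Col2a1 at 0.0409 and 0.122 TPM, against 0.139 and 0.0717 TPM alone. Col6a1, Col6a2 and Col20a1, which were also higher in Oli-neu than in MB1, went the other way, with both MB1 libraries beside Oli-neu above those alone. Col6a2 and Col20a1 passed the filter through the co-culture libraries alone, so their direction was fixed by the filter, and that of Col6a1 was not. Col1a1 was at 0.367 and 0.407 TPM with Oli-neu, against 0.0806 and 0.0971 TPM alone, too low to be tested. Sox10, high in Oli-neu, was at 0.586 and 0.484 TPM in MB1 with Oli-neu, against 0.882 and 0.466 TPM in MB1 alone.

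Among integrins in MB1, Itga5 was at 13 and 17.3 TPM with Oli-neu, against 7.03 and 11 TPM alone (log2 fold change 0.71, SE 0.26, limma adjusted p = 0.314). Itga6 was at 19.7 and 15.9 TPM, against 27.7 and 22.8 TPM alone (log2 fold change -0.48, SE 0.19), while Itga7, which binds laminin as well, was at 43.2 and 35.1 TPM, against 21.1 and 33.3 TPM alone (0.54, SE 0.26, log2). These 3 separated the groups, Itga6 on the lower side. The Itga7 difference was 1.00 for replicate 1 and 0.074 for replicate 2. Itgb1, their common partner, was at 366 and 375 TPM with Oli-neu, against 327 and 249.9 TPM alone (0.37, SE 0.19, log2). The laminins of smallest p, Lamb2 (-0.49), Lamc1 (0.15) and Lama5 (0.064, all log2), overlapped between the groups, and so did the other 2 tested. Both co-culture libraries lay above both monoculture libraries for 11 of 36 members and below for 8, against 10.9% and 41.5% of all genes tested, and for 9 and 6 of 32 without the 4 that passed through 1 group.

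The median log2 fold change in MB1 was 0.20 over 19 collagens, the 4 that passed through 1 group included, 0.035 over 5 laminins and 0.17 over 10 integrin subunits, beside -0.17 over all genes. After median-ratio scaling, which moved the median of all genes to -0.0032, these were 0.31, 0.22 and 0.30, and 58.8% of 1434 genes at an unadjusted p under 0.05 were then higher, against 19.3% of 1944 as deposited. The collagen median changed when single libraries were left out: over the 17 collagens then tested it was -0.054 without MB1 with Oli-neu replicate 1, -0.077 without MB1 with Oli-neu replicate 2, -0.11 without MB1 alone replicate 1 and 0.48 without MB1 alone replicate 2. These 17 were not the same genes each time. Col6a2 and Col20a1 failed the filter without a co-culture library, and Col27a1 and Col9a1 without a monoculture library. Leaving out MB1 alone replicate 1 also gave 112 genes called, against 0 with all libraries, none of them a member. Cd68 moved with this comparison, at 11.5 and 21.7 TPM with Oli-neu, against 4.88 and 6.78 TPM alone, whereas the other 7 leukocyte markers did not exceed 0.353 TPM in any MB1 library, so that the 8 summed to 11.6 and 21.8 TPM with Oli-neu, against 4.95 and 7.45 TPM alone. The part of Cd68 in the results was not tested.

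**Figure D4:**
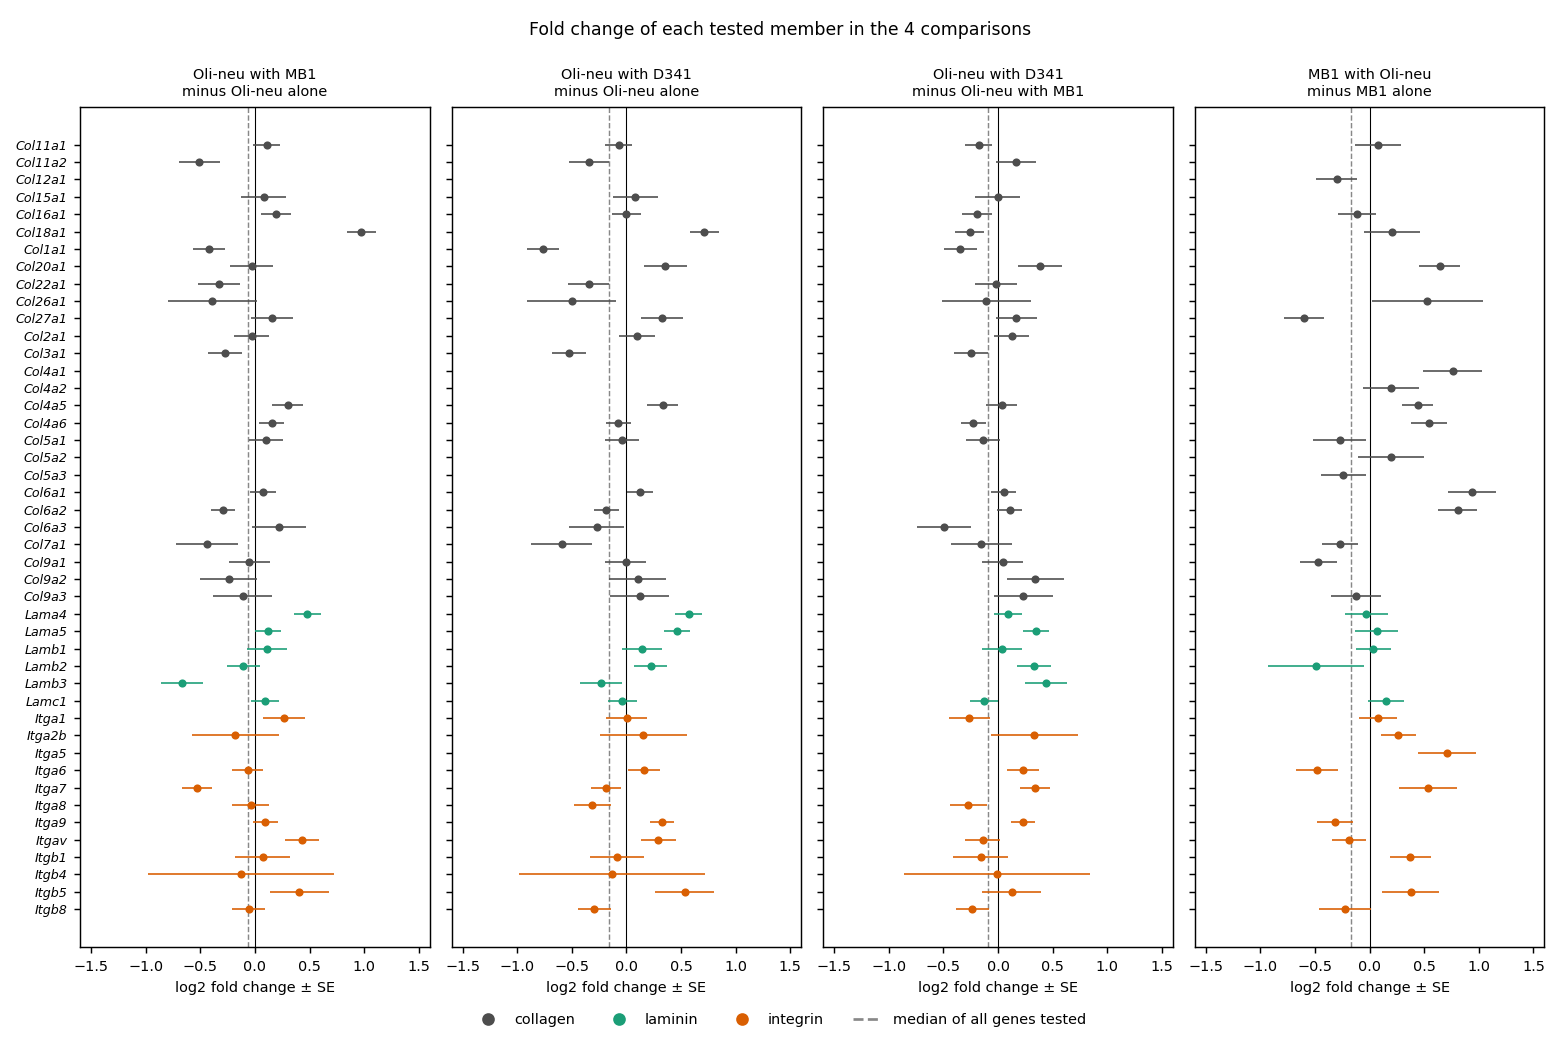
Log2 fold change of each tested member (points, coloured by family) with its SE (bars) in the 4 comparisons, from limma on log2(TPM + 1), with the median of all genes tested as a dashed line. No member passed the threshold, and Col18a1 lies farthest to the right in the panels against Oli-neu alone and Col6a1 in the MB1 panel.

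Some members lay on opposite sides in the co-cultures of the 2 lines. Among the 30 members tested in both tables, both libraries of Oli-neu with MB1 lay on one side of Oli-neu alone, and both libraries of MB1 with Oli-neu on the other side of MB1 alone, for 3, Col6a2, Itga7 and Itgav, against 4.08% of 11182 genes. With Oli-neu with D341 in place of Oli-neu with MB1 this held for 5, Col6a2, Col27a1, Itga7, Itga9 and Itgav, against 3.68%. Col6a2 and Col27a1 are among the members that passed the MB1 filter through 1 group, so they had to differ there and nothing is read from these counts. The difference between the lines was not tested. With median-ratio scaling the Itgav value in MB1 was 0.0034, and in Oli-neu with D341 Col6a2 was at -0.021 and Itga7 at -0.066.

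Some members separated the Oli-neu libraries by replicate number, whatever the culture. All 3 libraries numbered 2 were above all 3 numbered 1 for 6 of 41 tested members, Col2a1, Col9a1, Col9a3, Col15a1, Itga2b and Itgb4, and below for 4, Itga1, Itgb1, Itgb1bp1 and Itgb3bp, against 9.14% above and 11.6% below of 12280 genes. Itgb4, which pairs with Itga6 in a laminin receptor, was at 1.82 to 2.98 TPM in the libraries numbered 2 and 0.106 to 0.321 TPM in those numbered 1. Itga2b was at 7.13 to 9.51 TPM and 3.88 to 5.0 TPM in the same order, and Itgb1 at 181 to 196 TPM and 219 to 280.2 TPM. Itgb6, a partner of Itgav in epithelia, was not tested. In the libraries numbered 2 its level was 0.913 TPM beside D341 and 1.04 TPM beside MB1, and at no more than 0.042 TPM in the other 4 Oli-neu libraries. The labels do not say what a number stands for beyond a biological replicate, and what sets these libraries apart was not tested.

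**Figure D5:**
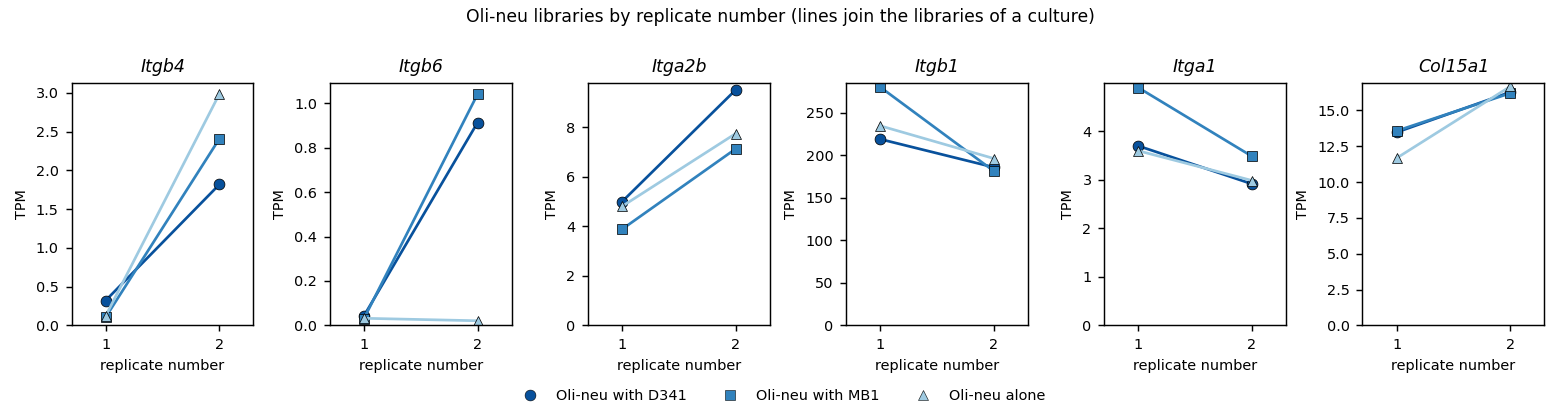
TPM of 6 members in the Oli-neu libraries by replicate number, with a line joining the 2 libraries of each culture. Itgb4, Itga2b and Col15a1 are higher and Itgb1 and Itga1 lower in all 3 libraries numbered 2, and Itgb6 is near 1 TPM in both co-culture libraries numbered 2 and not in Oli-neu alone.

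Genes that act with these families were counted in 4 lists: collagen processing (30 genes), other matrix and basement membrane proteins (35), integrin adhesion and signalling (32) and other matrix receptors (15). None of their genes passed the threshold in any comparison (limma, adjusted over all genes). In the order just given, the median log2 fold changes of the lists were -0.0057, 0.052, -0.039 and 0.085 in Oli-neu with MB1, -0.089, -0.034, -0.19 and -0.05 in Oli-neu with D341, each over Oli-neu alone, -0.047, 0.014, -0.16 and -0.089 in Oli-neu with D341 over Oli-neu with MB1, and -0.084, -0.13, -0.16 and 0.089 in MB1 with Oli-neu over MB1 alone, beside -0.061, -0.16, -0.092 and -0.17 over all genes. In MB1 with Oli-neu, 0 processing genes were higher and 4 lower at an unadjusted p under 0.05 of 24 tested, 2 and 4 of 23 other matrix genes, 0 and 3 of 28 adhesion genes, and 2 and 0 of 15 receptors. Over all genes tested the shares were 3.02% higher and 12.6% lower, and nothing is read from the counts of the lists in any comparison. The receptors of smallest p were Cd44, the hyaluronan receptor, at 31 and 32.3 TPM with Oli-neu, against 18.1 and 19 TPM alone (0.74, log2), and Bcam, which binds Lama5, at 16.2 and 22 TPM, against 10.4 and 9.93 TPM alone (0.83, log2). Npnt, the ligand of Itga8, was at 19.1 and 18.1 TPM with Oli-neu, against 11.9 and 11.9 TPM alone (0.61, log2). The collagen lysyl hydroxylase Plod2 was at 58.8 and 61.3 TPM, against 88.7 and 88.8 TPM alone (-0.56, log2), Mia2, which acts in the export of large cargo, at 58.4 and 74.8 TPM, against 110.2 and 149.5 TPM alone (-0.95, log2), and Fbn2, a fibrillin, at 2.13 and 2.68 TPM, against 4.6 and 3.83 TPM alone (-0.62, log2). The adaptor Lims2 was at 1.64 and 2.46 TPM with Oli-neu, against 17.7 and 7.32 TPM alone (-2.05, log2), and Tns3, a tensin of adhesion sites, had a log2 fold change of -0.52. These 8 genes separated the groups and did not pass.

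In Oli-neu with D341, 0 adhesion genes were higher and 5 lower at an unadjusted p under 0.05 of 26 tested, while processing genes counted 0 and 1 of 21, other matrix genes 2 and 1 of 24 and receptors 0 and 1 of 15. Over all genes tested the shares were 1.61% higher and 12.1% lower. The actin crosslinker Flna was at 45.8 and 55.6 TPM with D341, against 76.1 and 89.7 TPM alone (-0.70, log2), and the adhesion protein Zyx at 10.4 and 7.75 TPM, against 16.8 and 15.1 TPM alone (-0.76, log2). The collagen receptor Ddr2 was at 6.52 and 6.26 TPM with D341, against 9.26 and 10.03 TPM alone (-0.53, log2), whereas Sdc4, a syndecan, had a log2 fold change of 0.32. Thbs3, a thrombospondin, was at 7.99 and 6.66 TPM with D341, against 3.65 and 4.71 TPM alone (0.69, log2), and Nid1, which links laminin to type IV collagen, at 2.98 and 3.01 TPM, against 2.08 and 2.22 TPM alone (0.34, log2). The procollagen enhancers Pcolce (0.30, log2) and Pcolce2 (-0.56, log2) stood on opposite sides.

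In Oli-neu with MB1, the counts at an unadjusted p under 0.05 were 0 higher and 1 lower of 21 processing genes, 1 and 0 of 24 other matrix genes, 0 and 1 of 26 adhesion genes and none of 15 receptors. Over all genes tested the shares were 1.43% higher and 4.65% lower. Of the 2 genes of smallest p in each list, the netrins Ntn4 (0.35) and Ntn1 (0.23), the prolyl hydroxylase P3h2 (0.39), the kinase Src (0.53) and Cd44 (0.18) lay on the higher side, and Pcolce2 (-0.52), the adaptor Parvb (-0.50) and Ddr2 (-0.26) lay on the lower side, all as log2 fold changes. Between the Oli-neu co-cultures, with D341 over with MB1, 0 processing genes were higher or lower at that level, 1 and 2 of the other matrix genes, 1 and 3 of the adhesion genes and none of the receptors. Over all genes tested the shares were 0.790% higher and 4.34% lower. Thbs3 (0.81) and Parvb (0.65) were higher with D341 and Ntn1 (-0.43), Tns3 (-0.45), P3h2 (-0.32), Bmp1 (-0.21), Dag1 (-0.28) and Ddr2 (-0.26) lower, again as log2 fold changes that did not pass.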

How the data were processed

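RNA of 10 mouse libraries (5 groups of 2) was analysed, from 14 libraries in the series; those of D341 were not used here. Per the labels' protocols, poly(A) RNA was made into directional libraries and sequenced over 75 cycles. The deposited values are TPM per gene, 1000000 in each library, in a table for each line; per the submitters' processing notes, the authors used Salmon 0.14.1, FastQC 0.11.8, DESeq2 1.22.2, MultiQC 1.7 and the build GRCm38, and what each did is not given in the sources used here. The tables hold no counts, so depth is unknown and no counting interval is given.

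Symbols and positions came from GENCODE M21, which matched 35099 of 35288 identifiers, and promoter windows from RefSeq. TPM + 1 was taken to log2, and genes that reached 1 TPM in 2 or more libraries of a line entered limma 3.58.1 in R 4.3.3 (empirical Bayes with a trend), the 6 Oli-neu libraries in 1 fit and the 4 MB1 libraries in another. Errors are SD for TPM and the moderated SE for fold changes. How reads shared with pseudogenes or paralogous chains were assigned is not given in the sources used here, so such levels are uncertain. For the 3 members of smallest p in each family and comparison, values are given in every library of that comparison. For the 5 highest per line and the 5 with the largest difference between lines, they are given by library or range. Of partner lists, the 2 genes of smallest p are named. Other members named were chosen after their values were seen. The members, the lists and the rule were chosen with earlier results of these data known. The procedure was also run on simulated data in which libraries varied independently. Its outcome is not given here, and nothing is read from it. The values of 1 member are not reported here.

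Each choice was varied in turn: the pseudocount (0.1 or 5 TPM), the filter (none, or 5 TPM), the scaling (median-ratio, protein-coding genes alone, or without mitochondrially encoded genes), the trend, a block for the replicate number, a fit to the groups compared alone, and the omission of single libraries.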

Additional observations from a re-analysis of the deposited data

Results flagged for a closer look

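Some members lay on opposite sides in the 2 lines: both libraries of an Oli-neu co-culture were above, or both below, those of Oli-neu alone, while both libraries of MB1 with Oli-neu lay on the other side of MB1 alone. The difference between the lines was not tested, since the tables are separate, and none of the values passed the threshold. All are log2 fold changes.

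With MB1 as the partner of Oli-neu, this held for 3 of the 30 members tested in both lines, against 4.08% of 11182 genes. Col6a2 was at -0.29 in Oli-neu with MB1 and 0.81 in MB1 with Oli-neu. Itga7 was at -0.53 in Oli-neu with MB1 and 0.54 in MB1 with Oli-neu. Itgav was at 0.43 in Oli-neu with MB1 and -0.19 in MB1 with Oli-neu, but its value in MB1 was 0.0034 with median-ratio scaling, which turns the direction.

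With D341 as the partner of Oli-neu, it held for 5 of 30, against 3.68% of 11182 genes. Col27a1 was at 0.33 in Oli-neu with D341 and -0.60 in MB1 with Oli-neu, and Itga9 at 0.32 and -0.32 in the same order. Col6a2 and Itga7 were each at -0.19 in Oli-neu with D341, which was -0.021 for Col6a2 and -0.066 for Itga7 with median-ratio scaling, and Itgav was at 0.29, beside the MB1 values above. Col6a2 passed the filter in MB1 through the co-culture libraries alone and Col27a1 through the monoculture libraries alone, so both had to differ there and nothing is read from the counts of 3 and 5. In these results Oli-neu alone is the shared control of both Oli-neu co-cultures, and MB1 with Oli-neu against MB1 alone enters both.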

How the results depend on the processing

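No member was called in any comparison under any alternative run. The number of all genes called, 0 in each comparison, was for Oli-neu with MB1 against alone 3 with a pseudocount of 0.1 TPM, 1 with no filter, 2 with median-ratio scaling, 2 over protein-coding genes and 1 with no trend. For Oli-neu with D341 against alone it was 3 with no filter and 1 over protein-coding genes. Between the Oli-neu co-cultures it was 6 with no filter, 1 over protein-coding genes and 1 with no trend. For MB1 with Oli-neu against alone it was 5 over protein-coding genes. With each library left out in turn it ranged from 0 to 0, 0 to 2, 0 to 3 and 1 to 112 in the same order of comparisons, 112 without MB1 alone replicate 1. The cause was not tested.

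The replicate number as a block gave 0 genes and 0 members called in each comparison. Deviations of same-numbered libraries correlated across genes at 0.614, 0.593 and 0.618 between the Oli-neu groups and -0.115 between the MB1 groups. The labels give the numbers no meaning and each comparison has 2 pairs, so they were not taken to pair the samples.

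Named members kept their direction in 141, 142, 138 and 108 values of the alternatives, and 3 reversed, all in MB1, where omitting single libraries moved Lamb2 between -1.03 and 0.046 and Lama5 between -0.11 and 0.23: Lamb2 to 0.046 and Lama5 to -0.077 without MB1 with Oli-neu replicate 1, and Lama5 to -0.11 without MB1 alone replicate 1. Between the lines, 33 of 47 members did not overlap over protein-coding genes and 39 of 46 in monocultures alone, against 29 of 45. The share over all genes under these settings is not given here. Monocultures alone also set fewer libraries against each other, so nothing is read from these counts. In monocultures alone, Col5a3, Col18a1, Itga6, Itgb1 and Itgb5 no longer overlapped, with MB1 above. Col4a6, Col22a1, Itga2b and Lamb3 came apart there with Oli-neu above. Over protein-coding genes, Col22a1, Itga2b and Lamc1 no longer overlapped, with Oli-neu above, and Col5a2 came to overlap. With 2 libraries in a group and depth unknown, absence of a call does not show that levels were alike.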
